A study of Mus musculus with 18 samples.

Results

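The genes described here are those whose response to BMP4 differed between 2 cultures of traced mouse spinal cord cells, the tdTomato line (genotype DNGR-1 +/- Tom+/-) and the EYFP line (genotype DNGR-1 +/- EYFP+/-). Both lines carry Cre recombinase in the Clec9a (DNGR-1) locus and a silent reporter in the ROSA26 locus, so that a cell that expressed Cre, and every descendant of it, fluoresces. Each line was grown as adherent neural stem cells (NSCs) from neurospheres, and each group held 3 libraries, made at passages between 10 and 12 of that line. NSCs were kept for 4 days with EGF and bFGF, each at 20 ng/ml, and astrocytes were collected after 6 days, for which the NSC medium had been exchanged for medium with BMP4 at 20 ng/ml. The change from NSC to astrocyte therefore holds the removal of the growth factors and the longer culture as well as BMP4, and these cannot be told apart. The study's methods give young adult mice unless stated otherwise, the sex and the number of the animals behind each line are not given in the sources used here, and a difference between the lines is a difference between 2 cultures that also differ in their reporter.

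For every gene the change from NSC to astrocyte in the tdTomato line was set against that in the EYFP line, over 12 of the 18 libraries of the series. Of 26819 autosomal genes in the table, 14534 were tested, those that reached 3.32 on the log2 scale (10 on the linear scale) in 3 or more of the 12 libraries. All values are the deposited log2 values, which are relative to library size and pull weakly expressed genes towards their mean, so that changes of such genes are understated. Where values are listed, they stand in the order of replicates 1, 2 and 3. A difference in change is the change in the tdTomato line minus the change in the EYFP line, so that a positive value is a more positive change in the tdTomato line. Xist, which is transcribed from the inactive X chromosome, lay at 13.09 to 14.99 in the 6 tdTomato libraries and at 5.30 to 5.59 in the 6 EYFP libraries, and the Y-linked Ddx3y lay at 4.29 to 4.53 and at 9.69 to 9.92. The lines thus differed in sex-linked expression, with the pattern of a female tdTomato and a male EYFP culture. This cannot be told apart from the line, and genes on the sex chromosomes were left out.

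Bone morphogenetic proteins bind type I and type II receptor kinases, which phosphorylate Smad proteins. The Smads enter the nucleus and switch on targets such as the Id genes, whose products block the factors that make neurons and oligodendrocytes. In cultured NSCs this signal, together with the loss of EGF and FGF, stops division and leads to cells rich in the intermediate filament Gfap. Notch receptors, hedgehog signalling and the sterol pathway are further systems by which neural stem cells and astrocytes are known to differ.

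The change of the astrocyte filament gene Gfap did not differ between the lines by the test. Gfap lay at 9.10, 9.12 and 8.96 in tdTomato NSCs, at 15.22, 14.69 and 15.52 in tdTomato astrocytes, at 9.36, 9.44 and 9.11 in EYFP NSCs and at 15.85, 15.25 and 15.92 in EYFP astrocytes. It rose by 6.08 in the tdTomato line and by 6.37 in the EYFP line, and the difference in change was -0.28 ± 0.27 (SE; limma adjusted p = 0.538). The difference was 0.10 ± 0.15 for S100b, a calcium-binding protein of astrocytes, and -0.16 ± 0.26 for the water channel Aqp4. Aqp4 lay lower in the tdTomato line in both fates, with a gap (tdTomato minus EYFP) of -1.67 in NSCs and -1.83 in astrocytes, so the lines were apart before BMP4 and after it. Nes, which encodes the stem cell filament nestin, fell by 3.18 and 3.05, and the proliferation antigen Mki67 fell by 6.09 and 6.37. For these markers, as for the direct BMP targets Id1 (-0.24 ± 0.18) and Id3 (-0.17 ± 0.15), the difference in change did not pass the test. The stem cell factor Sox2, a further marker of this set, did pass with a difference of 0.48, in 7 of the 12 fits that left out 1 library.

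Cells of other kinds were checked by their markers. The microglial genes Aif1 and Ptprc lay at -2.15 to -1.34 in the 12 libraries, the endothelial gene Cdh5 at -2.14 to -2.13 and the oligodendrocyte gene Mog at -1.44 to -1.07. Foxj1, the regulator of motile cilia in ependymal cells, lay at 9.41 to 11.32. In bulk RNA, fewer cells of a kind and less RNA per cell cannot be told apart.

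The change differed between the lines for 1719 of 14534 genes, or 11.8% (limma, Benjamini-Hochberg adjusted p under 0.05). It was more positive in the tdTomato line for 848 genes (5.83%) and more positive in the EYFP line for 871 (5.99%), and 337 of the 1719 (2.32% of the genes tested) had a difference of 1 or more in log2 units. For comparison, 11471 genes (78.9%) changed in the tdTomato line and 11004 (75.7%) in the EYFP line. Across the 14534 genes the changes in the 2 lines had a Pearson correlation of 0.941, as a description over genes that share their libraries, and for 86.1% of genes they lay within 0.5 of each other. When each astrocyte library was set against the mean of its line's NSCs, the 3 changes of one line lay apart from the 3 of the other for all 1719 called genes, and for 6293 (43.3%) of the genes tested. The count rests in part on single libraries. It was 1018 without tdTomato NSC replicate 3, 1060 without tdTomato NSC replicate 2, 1091 without EYFP NSC replicate 1 and 2175 without EYFP NSC replicate 3, and 888 of the 1719 genes passed in all 12 fits that each left out 1 library. With alternatives chosen after the data were seen, it was 2964 with a replicate block within fate and 920 without the 4 libraries numbered 1.

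**Figure D1:**
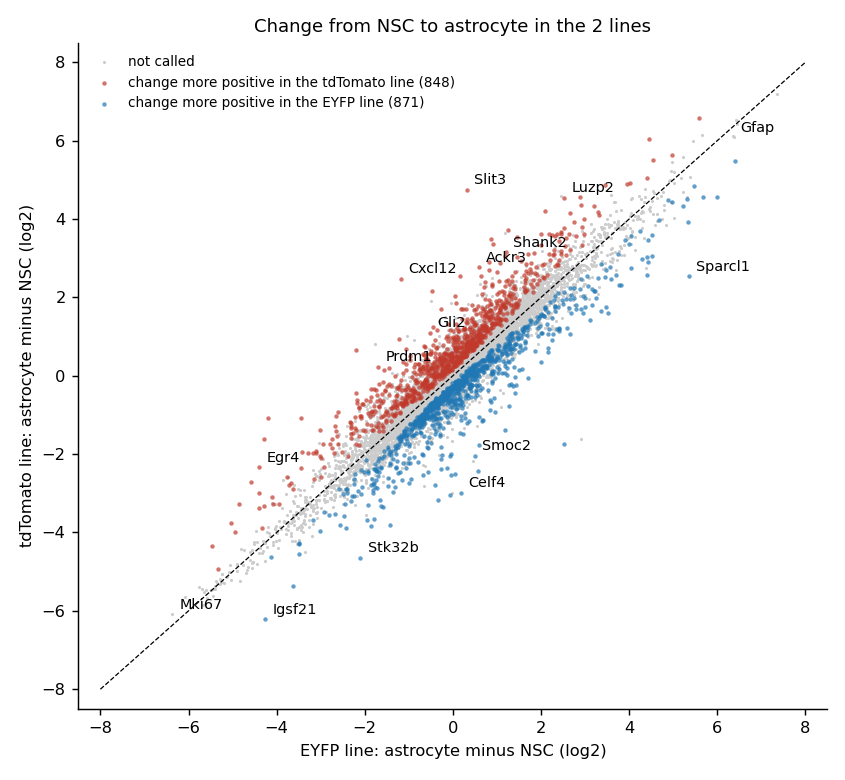
Change from NSC to astrocyte (log2, mean of 3 astrocyte libraries minus mean of 3 NSC libraries) in the EYFP line (x axis) and the tdTomato line (y axis) for the 14534 genes tested, with the 848 and 871 genes whose change differed in colour and equal change as the dashed line. Most genes lie along the line, Gfap and Mki67 among them, while Slit3 and Cxcl12 lie far above it and Celf4 and Sparcl1 far below.

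Most of these differences were of degree. Among the 848 genes with a more positive change in the tdTomato line, 363 rose in both lines and 207 fell in both, 125 rose in the tdTomato line and did not pass in the EYFP line, 97 fell in the EYFP line and did not pass in the tdTomato line, and 56 rose in the tdTomato line and fell in the EYFP line. Among the other 871 genes, 340 fell in both lines and 256 rose in both, 136 fell in the tdTomato line and did not pass in the EYFP line, 90 rose in the EYFP line and did not pass in the tdTomato line, and 49 fell in the tdTomato line and rose in the EYFP line. A difference in change is also the gap between the lines in astrocytes minus their gap in NSCs. Between the lines, 4431 genes (30.5%) differed in NSCs and 1909 (13.1%) in astrocytes. Leaving out tdTomato NSC replicate 3 gave 2795 genes in NSCs, and leaving out tdTomato astrocyte replicate 2 gave 1254 in astrocytes. Of the 1719 called genes, 1062 differed between the lines in NSCs and not in astrocytes by this test, 318 in astrocytes and not in NSCs, 270 in both and 69 in neither. The median size of the gap over the called genes was 0.36 in NSCs and 0.18 in astrocytes, against 0.15 and 0.10 over all genes tested.

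**Figure D2:**
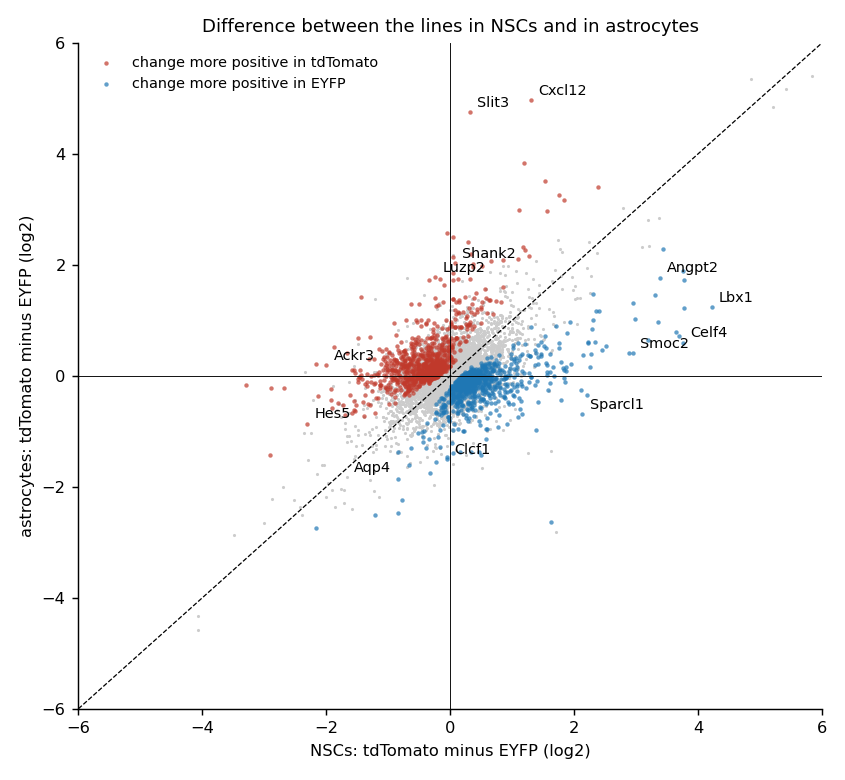
Difference between the lines (log2, tdTomato minus EYFP) in NSCs (x axis) and in astrocytes (y axis) for each gene tested, with the genes whose change differed in colour. Points near the x axis, such as Ackr3 and Celf4, are genes whose gap in NSCs was small in astrocytes, and points near the y axis, such as Slit3 and Shank2, are genes whose gap was seen in astrocytes.

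The genes of cholesterol synthesis differed in 1 direction. All 22 members tested fell in both lines, with a median change of -2.08 in the tdTomato line and -1.50 in the EYFP line. For 17 of the 22 the fall was deeper in the tdTomato line, and for none was it deeper in the EYFP line, against 5.99% and 5.83% of all genes tested. The median difference in change over the list was -0.50, against -0.01 over all genes tested. Counts for the list were 13 to 19 in the fits that left out 1 library, and 13 members passed in all 12. The start of the promoter is shown for 3 members that are steps or sensors of the pathway, because these genes moved together. The capitals mark the letters CCAAT or their reverse complement ATTGG, the box bound by the factor NF-Y that works beside the sterol-sensing factor Srebf2, and in Hmgcs1 also TCACNCCAC, the core of a sterol element.
Hmgcs1 promoter, GRCm38.p6 chr13:119690101-119690350, + strand: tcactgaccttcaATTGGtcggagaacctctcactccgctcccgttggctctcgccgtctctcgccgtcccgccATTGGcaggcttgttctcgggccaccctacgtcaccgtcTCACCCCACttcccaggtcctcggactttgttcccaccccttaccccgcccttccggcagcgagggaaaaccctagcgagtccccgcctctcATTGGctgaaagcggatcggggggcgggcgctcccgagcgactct
Idi1 promoter, GRCm38.p6 chr13:8885356-8885605, + strand: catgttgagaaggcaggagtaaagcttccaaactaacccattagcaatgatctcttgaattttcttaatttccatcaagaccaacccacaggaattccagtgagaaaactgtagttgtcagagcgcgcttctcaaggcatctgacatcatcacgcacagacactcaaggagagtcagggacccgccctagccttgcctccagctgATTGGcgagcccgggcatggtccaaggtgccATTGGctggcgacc
Insig1 promoter, GRCm38.p6 chr5:28071162-28071411, + strand: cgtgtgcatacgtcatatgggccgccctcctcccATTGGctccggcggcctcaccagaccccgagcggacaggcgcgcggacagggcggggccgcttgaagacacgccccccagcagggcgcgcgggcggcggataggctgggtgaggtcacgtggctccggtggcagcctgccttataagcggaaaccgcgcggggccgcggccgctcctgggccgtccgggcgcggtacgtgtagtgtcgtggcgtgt
Hmgcs1 makes the precursor of mevalonate, Idi1 makes an isoprenoid building block, and Insig1 holds Srebf2 in the endoplasmic reticulum when sterol is plentiful. Each window holds the 250 bases before the RefSeq start. On either strand, CCAAT was found in 11 of the 11 called members with an entry in the promoter table and in 14 of the 14 tested members with one, and in 37.5% of 27025 genes with a promoter there. TCACNCCAC was found in 1 of the 11, Hmgcs1, and in 1.22% of all genes. These matches describe the letters in the windows and are no evidence of binding.

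Idi1 lay at 12.01, 12.21 and 12.43 in tdTomato NSCs and at 9.27, 9.52 and 9.47 in tdTomato astrocytes, and at 11.97, 11.67 and 11.99 in EYFP NSCs and at 9.98, 9.99 and 10.08 in EYFP astrocytes. The astrocytes of the lines did not overlap, and the tdTomato astrocytes were the lowest of the 4 groups. The difference in change was -0.94 ± 0.15 (limma adjusted p = 0.00155), and 16.7% of the 75-base words of Idi1 are shared with another gene, so its counts carry that uncertainty. Fdps, which joins isoprenoid units, gave -0.83 ± 0.17, with 23.5% of its 75-base words shared with another gene. Insig1 lay at 10.37, 10.52 and 10.38 in tdTomato astrocytes and at 10.94, 10.90 and 11.02 in EYFP astrocytes, without overlap, and its difference in change was -0.72 ± 0.11. The demethylase Cyp51 gave -0.77 ± 0.11 and the methylsterol oxidase Msmo1 gave -0.80 ± 0.12. Srebf2, the transcription factor of the pathway, fell by 1.03 in the tdTomato line and by 0.53 in the EYFP line, a difference of -0.50 ± 0.09 (limma adjusted p = 0.00252).

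Of the 5 members that did not pass, Mvd gave -0.35 and Tm7sf2 gave -0.15. Between the lines, 10 members lay higher in tdTomato NSCs and 13 lay higher in EYFP astrocytes. The list's gap therefore turned round between the fates, with a median of 0.21 in NSCs and -0.33 in astrocytes.

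**Figure D3:**
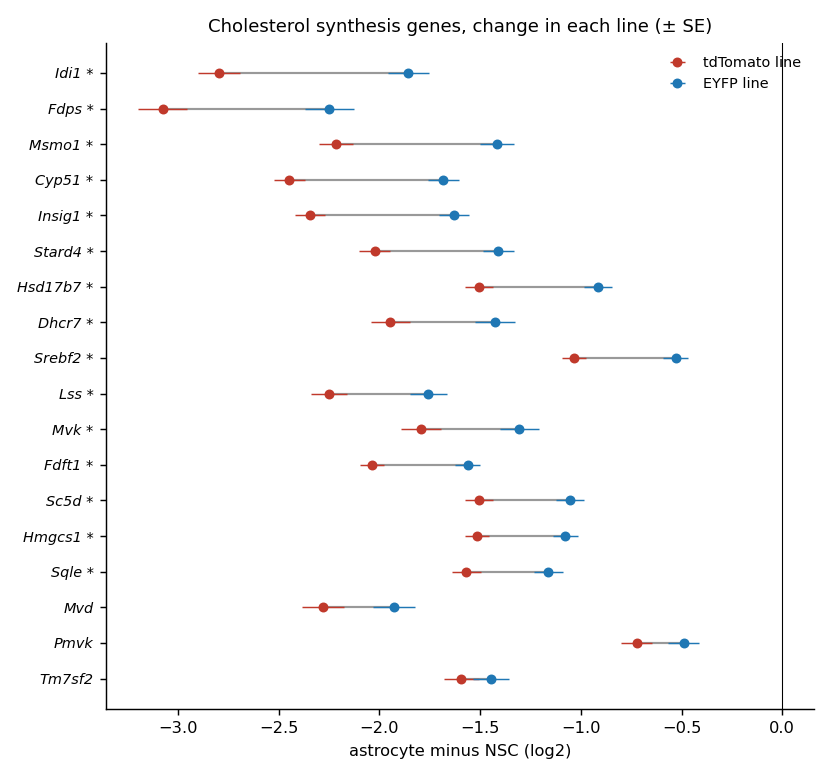
Change from NSC to astrocyte (log2, ± SE of the fit, 3 libraries per group) of 18 of the 22 cholesterol synthesis genes tested in the tdTomato and the EYFP line, ordered by the difference, with a star for those whose change differed (15). Every gene drawn lies below 0 in both lines, and in each pair the tdTomato point lies to the left, by 0.94 for Idi1.

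Genes of fatty acid metabolism were less one-sided, with 9 of 37 more positive in the EYFP line and 5 more positive in the tdTomato line. That is 37.8% of the list, against 11.8% of all genes tested. Lpl, the lipase that frees fatty acids from lipoproteins, rose by 1.59 in the tdTomato line and by 2.68 in the EYFP line, a difference of -1.09 ± 0.14 (limma adjusted p = 0.000544). Acsl1, which activates long-chain fatty acids, rose by 0.78 and by 1.52. Elovl6, an elongase that is a known target of the sterol regulatory factors, fell by 2.01 and by 1.46. Without tdTomato NSC replicate 3 the counts of this list were 5 and 3, and without EYFP NSC replicate 1 they were 7 and 3. Fabp3, among the 9, reached the filter through EYFP astrocytes alone and passed in 2 of the 9 fits that tested it.

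Among 25 Notch pathway genes tested, 9 had a more positive change in the tdTomato line and 1 in the EYFP line. The share called was 40%, against 11.8% of all genes tested. The 9 include Mfng, which reached the filter on low values through EYFP NSCs alone. Notch receptors are cleaved after contact with a ligand on a neighbouring cell, and their intracellular part turns on Hes and Hey repressors with the factor RBPJ. The promoter of the target Hes5 is shown with the RBPJ letters GTGGGAA, on either strand, in capitals.
Hes5 promoter, GRCm38.p6 chr4:154960673-154960922, + strand: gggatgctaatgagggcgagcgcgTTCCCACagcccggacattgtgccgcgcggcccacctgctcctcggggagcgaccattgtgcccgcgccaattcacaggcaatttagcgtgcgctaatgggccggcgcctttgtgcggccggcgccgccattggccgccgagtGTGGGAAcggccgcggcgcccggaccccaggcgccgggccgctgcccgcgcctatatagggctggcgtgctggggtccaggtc
GTGGGAA was found in 1 of the 8 called Notch pathway genes with a promoter entry, Hes5, and in 6.18% of all genes, so the list as a whole did not share it. Hes5 lay at 5.95, 5.83 and 5.02 in tdTomato NSCs and at 6.78, 6.82 and 7.17 in tdTomato astrocytes. It lay at 7.76, 7.95 and 8.01 in EYFP NSCs and at 7.81, 7.75 and 7.80 in EYFP astrocytes. All tdTomato libraries were below all EYFP libraries, and the gap (tdTomato minus EYFP) was -2.31 in NSCs and -0.86 in astrocytes. Hes5 rose by 1.32 in the tdTomato line, and its change of -0.12 in the EYFP line did not pass, a difference of 1.44 ± 0.28 (SE; limma adjusted p = 0.00524).

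Notch1 lay at 13.58, 13.55 and 13.45 in tdTomato NSCs and at 13.93, 13.86 and 13.85 in tdTomato astrocytes, and at 14.06, 14.07 and 13.93 in EYFP NSCs and at 13.78, 13.83 and 13.78 in EYFP astrocytes. The receptor rose by 0.35 in the tdTomato line and fell by 0.22 in the EYFP line, a small difference of 0.58 ± 0.07 with little spread (limma adjusted p = 0.000511). Notch2 (0.52) and Notch3 (0.72) differed in the same direction. Dll4, a ligand, rose by 3.63 and by 2.46, and the target Hey1 rose by 1.68 and by 0.83. Nrarp, a feedback inhibitor of Notch, fell in both lines from 7.80, 7.82 and 7.64 to 3.54, 3.98 and 4.47 in the tdTomato line and from 9.04, 8.92 and 9.14 to 3.98, 3.69 and 4.33 in the EYFP line. The astrocytes of the lines overlapped for Nrarp and the NSCs did not, which gave a difference of 1.28 ± 0.29. Hes1, a further target, fell by 1.12 and 1.48 and did not pass (0.36 ± 0.19, limma adjusted p = 0.251). Of the 25 genes, 15 lay higher in EYFP NSCs and 3 in tdTomato NSCs. The 1 gene in the other direction was the ligand Jag2, which passed in 5 of the 12 fits that left out 1 library and did not pass in 7, those without tdTomato NSC replicates 2 and 3, EYFP NSC replicate 2, tdTomato astrocyte replicates 2 and 3 and EYFP astrocyte replicates 1 and 3 (limma adjusted p of 0.0563 to 0.111), while 7 of the 9 passed in all 12.

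Of the 22 BMP targets and Smad feedback genes tested, 7 had a more positive change in the tdTomato line and 1, Id2, in the EYFP line. The share called was 36.4%, against 11.8% of all genes tested, and 15 of the 22 rose in each line. Id4, a relative of Id1, lay at 6.35, 6.20 and 5.95 in tdTomato NSCs and at 11.02, 11.13 and 11.10 in tdTomato astrocytes. It lay at 6.75, 6.33 and 6.32 in EYFP NSCs and at 10.48, 10.57 and 10.42 in EYFP astrocytes. The NSCs overlapped, the tdTomato astrocytes all lay higher, and the difference was 0.89 ± 0.16 (limma adjusted p = 0.00413). Bmper, a secreted BMP-binding regulator, rose by 2.15 in the tdTomato line and by 1.12 in the EYFP line. Atoh8, a factor induced by BMP, rose by 5.50 and by 4.55, and the membrane protein Tmem100 rose by 1.53 and by 0.65. Smad6 (0.26 ± 0.26), Smad9 (0.08 ± 0.18) and the antagonists Nog (0.09 ± 0.39) and Bambi (0.06 ± 0.14) rose in both lines and gave no difference that passed. Id2 rose by 1.96 in the tdTomato line and by 2.65 in the EYFP line, a difference of -0.70 ± 0.17. It did not pass without tdTomato NSC replicate 2, EYFP NSC replicate 2 or tdTomato astrocyte replicate 2 (limma adjusted p of 0.0513 to 0.0556), and the more positive calls of the list numbered 5 to 8 in the fits that left out 1 library.

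Among ligands and receptors of the BMP and TGF-beta families, 6 of 27 were more positive in the tdTomato line and 3 in the EYFP line. This was 33.3% of the list, against 11.8% of all genes tested. Bmp2 lay at 3.35, 3.65 and 3.63 in tdTomato NSCs and at 6.10, 5.83 and 5.76 in tdTomato astrocytes, and at 3.17, 2.82 and 3.12 in EYFP NSCs and at 4.34, 3.98 and 3.48 in EYFP astrocytes. This ligand rose by 2.35 and by 0.89, a difference of 1.46 ± 0.31 (limma adjusted p = 0.00885). Tgfb3, a ligand of the TGF-beta receptors, rose by 1.16 and by 0.58. Tgfbr3, the co-receptor betaglycan, rose by 1.32 and by 2.13 and so went the other way (-0.82 ± 0.15). Without tdTomato NSC replicate 3 or EYFP NSC replicate 1 the list gave 3 and 2 calls, and without EYFP NSC replicate 2 it gave 3 and 4, so the side with more calls depended on that library.

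Cxcl12 had the largest difference of the genes that reached a group mean of at least 6.64 (100 on the linear scale). It encodes a chemokine that guides migrating cells in the developing nervous system, acts through the receptor Cxcr4 and is removed by the scavenging receptor Ackr3. Cxcl12 (ENSMUSG00000061353, GRCm38 chr6:117168535-117181367, + strand) lay at 5.64, 5.84 and 5.62 in tdTomato NSCs and at 8.41, 8.13 and 7.99 in tdTomato astrocytes. In the EYFP line it lay at 4.85, 4.16 and 4.18 in NSCs and at 3.44, 3.08 and 3.12 in astrocytes. It rose by 2.48 in the tdTomato line and fell by 1.19 in the EYFP line, a difference of 3.66 ± 0.27 (SE; limma adjusted p = 2.01e-05), and the gap between the lines went from 1.30 in NSCs to 4.97 in astrocytes.

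Ackr3 (chr1:90203980-90216751, + strand) lay at 8.31, 7.60 and 7.26 in tdTomato NSCs and at 10.65, 10.44 and 10.40 in tdTomato astrocytes. It lay at 9.76, 9.81 and 9.60 in EYFP NSCs and at 10.28, 10.23 and 10.43 in EYFP astrocytes. The astrocytes overlapped and the NSCs did not, so the difference of 2.19 ± 0.27 (limma adjusted p = 0.000484) came with a gap of -2.0 at the start and of 0.19 in astrocytes, which did not pass. Cxcr4, named after its values were seen, rose by 2.23 and by 1.88, and its difference of 0.35 ± 0.18 did not pass (limma adjusted p = 0.231). Of 15 chemokine and cytokine genes tested, 20% differed, against 11.8% of all genes tested. Il33 was the other one with a more positive change in the tdTomato line, in 5 of the 12 fits that left out 1 library (limma adjusted p of 0.0599 to 0.0797 in the other 7). Clcf1, a cytokine of the ciliary neurotrophic factor family, rose more in the EYFP line. Clcf1 lay at 5.61, 5.57 and 5.07 in tdTomato astrocytes and at 7.13, 6.78 and 6.85 in EYFP astrocytes, from 2.79 to 3.33 in the NSCs of both lines, a difference of -1.45 ± 0.27.

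**Figure D4:**
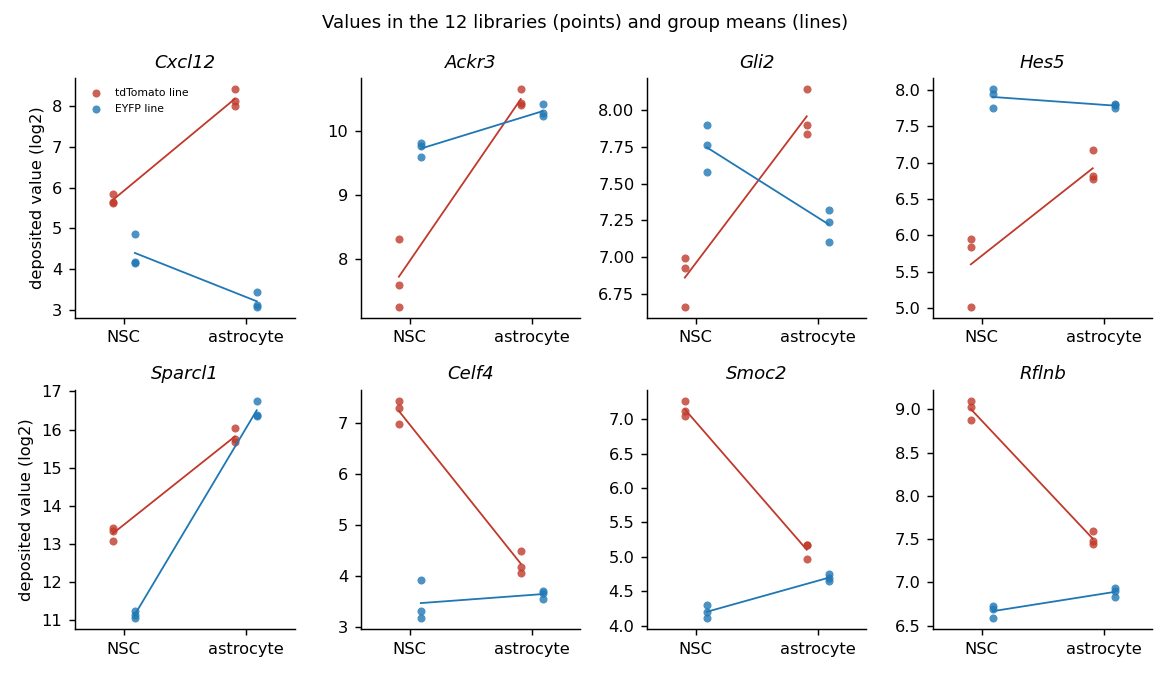
Deposited log2 values of 8 genes in the 12 libraries (points, 3 per group) with lines through the group means, for the tdTomato line and the EYFP line in NSCs and astrocytes. Cxcl12 and Gli2 rose in the tdTomato line and fell in the EYFP line, Ackr3 started apart and came close, Sparcl1 crossed from higher to lower in the tdTomato line, and Celf4, Smoc2 and Rflnb fell in the tdTomato line from a level the EYFP line did not have.

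Gli2 (chr1:118834132-119053619, - strand), an effector of hedgehog signalling, also moved in opposite directions. It lay at 6.93, 7.0 and 6.66 in tdTomato NSCs and at 7.83, 7.90 and 8.14 in tdTomato astrocytes, and at 7.76, 7.90 and 7.58 in EYFP NSCs and at 7.10, 7.24 and 7.32 in EYFP astrocytes. It rose by 1.09 and fell by 0.52, a difference of 1.62 ± 0.17 (limma adjusted p = 0.000199). Ptch1, the hedgehog receptor and a target of the pathway, fell by 0.57 in the tdTomato line and by 1.17 in the EYFP line. Of 13 hedgehog pathway genes, 4 were more positive in the tdTomato line (Gli2, Nkx6-1, Ptch1 and Gli3) and 2 in the EYFP line (Gas1 and the ligand Dhh). These are 46.2% of the list, against 11.8% of all genes tested. The EYFP count was 1 without any 1 of the tdTomato NSC libraries, when Dhh missed the filter on low values. Dhh lay at 5.57, 5.74 and 5.34 in tdTomato NSCs, at 2.88 to 3.28 in EYFP NSCs and at 1.00 to 2.21 in all astrocytes, and was tested only through the group where it was high.

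Several further genes rose more in the tdTomato line. Luzp2 lay at 4.99, 4.24 and 3.82 in tdTomato NSCs and at 4.82, 4.64 and 4.31 in EYFP NSCs, and at 8.92, 8.86 and 8.89 in tdTomato astrocytes and 7.35, 7.02 and 6.98 in EYFP astrocytes (difference 2.01 ± 0.33, limma adjusted p = 0.00223). Shank2, a scaffold of the postsynaptic density, lay at 4.57 to 4.95 in the 6 NSC libraries and at 8.30, 7.75 and 7.88 in tdTomato against 6.22, 5.96 and 5.68 in EYFP astrocytes (difference 1.95 ± 0.25, limma adjusted p = 0.000544). For both genes the NSCs of the lines overlapped and the astrocytes did not. Tenm4, a transmembrane protein of cell recognition, rose by 1.85 in the tdTomato line and did not pass in the EYFP line (0.07), a difference of 1.78 ± 0.19. Nrxn3, a presynaptic adhesion protein, lay at 7.98, 7.21 and 7.20 in tdTomato NSCs and at 9.29, 9.26 and 8.49 in EYFP NSCs, and at 9.63 to 9.92 in all 6 astrocyte libraries, so it differed at the start and not at the end (difference 1.66 ± 0.30). Glycam1, a mucin-like ligand of L-selectin, rose by 6.03 and by 4.44. Its difference of 1.59 ± 0.43 did not pass without tdTomato NSC replicates 2 or 3, EYFP NSC replicate 1, tdTomato astrocyte replicate 1 or EYFP astrocyte replicates 2 or 3 (limma adjusted p of 0.0527 to 0.0772).

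Other genes of this side fell less in the tdTomato line, or fell in the EYFP line alone. Prdm1, a transcriptional repressor, lay at 6.20, 6.09 and 6.13 in tdTomato NSCs and at 6.56, 6.29 and 6.24 in tdTomato astrocytes, and at 6.78, 7.04 and 6.51 in EYFP NSCs and at 5.28, 5.23 and 4.72 in EYFP astrocytes. It fell by 1.70 in the EYFP line and its change of 0.23 in the tdTomato line did not pass, a difference of 1.92 ± 0.24 (limma adjusted p = 0.000511). Fndc1 fell by 1.39 in the tdTomato line and by 3.03 in the EYFP line, and Papln, a matrix glycoprotein, fell by 1.04 and by 2.66. The RNA 9230105E05Rik fell by 2.71 and by 4.58, and it overlaps Hmga2 on the other strand. Because it is not given in the sources used here whether the counting used strand, the reads of that pair cannot be told apart, and 11 of the 33 genes with the largest or opposite differences overlap a gene on the other strand. Sox2ot, the RNA that overlaps Sox2, rose by 0.56 in the tdTomato line and fell by 0.59 in the EYFP line. Sox2 itself, a factor of stem cell identity, rose by 1.35 and by 0.88, a difference of 0.48 ± 0.12 that did not pass without tdTomato NSC replicates 2 or 3, EYFP NSC replicates 1 or 2 or EYFP astrocyte replicate 1 (limma adjusted p of 0.0529 to 0.0655). Gm14434 also moved in opposite directions (0.73 and -0.63), but 99.9% of its 75-base words are shared with another gene, so its value is uncertain.

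Sparcl1 rose more in the EYFP line. It encodes hevin, a matrix protein that astrocytes secrete and that promotes excitatory synapses. Sparcl1 (chr5:104079111-104113733, - strand) lay at 13.07, 13.42 and 13.33 in tdTomato NSCs and at 15.74, 15.67 and 16.04 in tdTomato astrocytes. It lay at 11.05, 11.24 and 11.14 in EYFP NSCs and at 16.39, 16.37 and 16.76 in EYFP astrocytes. The groups did not overlap, and the line that was lower as NSCs was higher as astrocytes. Sparcl1 rose by 2.54 and by 5.36, a difference of -2.82 ± 0.17 (SE; limma adjusted p = 5.68e-06). Gabbr2, a subunit of the GABA-B receptor, rose by 1.75 and by 3.47 (difference -1.72 ± 0.27), and the potassium channel Kcnt1 rose by 2.91 and by 4.42 (difference -1.51 ± 0.14).

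Another set was expressed in tdTomato NSCs and fell towards the EYFP level. Celf4, an RNA-binding protein known from neurons, lay at 6.97, 7.43 and 7.28 in tdTomato NSCs and at 4.06, 4.17 and 4.49 in tdTomato astrocytes, and at 3.32, 3.18 and 3.92 in EYFP NSCs and at 3.67, 3.56 and 3.71 in EYFP astrocytes. It fell by 2.98 in the tdTomato line and its change of 0.18 in the EYFP line did not pass, a difference of -3.16 ± 0.29 (limma adjusted p = 0.000102). Smoc2, a calcium-binding matrix protein (chr17:14279506-14404790, + strand), lay at 7.04, 7.12 and 7.27 in tdTomato NSCs and at 5.17, 4.97 and 5.17 in tdTomato astrocytes, and at 4.30, 4.11 and 4.19 in EYFP NSCs and at 4.69, 4.65 and 4.76 in EYFP astrocytes. It fell by 2.04 and rose by 0.50 (difference -2.54 ± 0.18, limma adjusted p = 1.22e-05). For both genes the lines were far apart as NSCs and close as astrocytes. Rflnb, a filamin-binding protein, lay at 8.88, 9.03 and 9.10 in tdTomato NSCs, at 7.48, 7.59 and 7.44 in tdTomato astrocytes, at 6.59, 6.73 and 6.69 in EYFP NSCs and at 6.91, 6.83 and 6.93 in EYFP astrocytes, and fell by 1.50 and rose by 0.22 (difference -1.72 ± 0.12, limma adjusted p = 1.22e-05).

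The kinase gene Stk32b fell by 4.65 in the tdTomato line and by 2.10 in the EYFP line, and Sec16b, a gene of endoplasmic reticulum exit sites, fell by 3.80 and by 1.42. The chromatin remodeller Chd3 fell by 2.37 and the chloride channel protein Clic5 by 2.06 in the tdTomato line, while their changes of -0.27 and -0.07 in the EYFP line did not pass. Igsf21 (6.22 and 4.26), the neuronal pentraxin Nptx2 (5.36 and 3.63), the vascular ligand Angpt2 (2.97 and 1.36) and the RNA-binding protein Igf2bp3 (2.74 and 0.99) fell in both lines by the log2 amounts given, in the tdTomato line first. Cdh23, a cadherin, fell by 0.44 in the tdTomato line and rose by 1.41 in the EYFP line. In tdTomato NSCs these 9 genes lay above EYFP NSCs, by 1.61 for Igf2bp3 to 3.77 for Stk32b.

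Of 31 astrocyte markers tested, 12 had a more positive change in the tdTomato line, 3 in the EYFP line and 16 did not pass. This share of 48.4% called compares with 11.8% of all genes tested, and the median difference in change was 0.37. Not all of the 12 rose in both lines, and the potassium channel Kcnj10 rose by 0.21 in the tdTomato line and fell by 0.47 in the EYFP line. Slc1a2, the main glutamate transporter of astrocytes, lay at 11.90, 11.62 and 11.41 in tdTomato NSCs and at 15.07, 15.06 and 15.08 in tdTomato astrocytes. It lay at 12.58, 12.49 and 12.05 in EYFP NSCs and at 14.70, 14.79 and 14.89 in EYFP astrocytes. The tdTomato libraries were lower as NSCs and higher as astrocytes, without overlap, although the astrocyte gap of 0.28 did not pass, and the difference in change was 1.01 ± 0.18 (limma adjusted p = 0.00372). The lipoprotein Apoe rose by 3.67 and by 2.45, with NSC values of 12.52, 12.01 and 11.78 against 13.79, 13.66 and 12.98 and overlapping astrocytes. Its difference of 1.21 ± 0.30 did not pass without tdTomato NSC replicates 2 or 3 or EYFP NSC replicates 1 or 2 (limma adjusted p of 0.051 to 0.0538). Of the 31 genes, 20 lay higher in EYFP NSCs and 3 in tdTomato NSCs, and in astrocytes the counts were 8 and 3. The surface receptor Cd44 (-0.50), Itih3 (-0.76) and Sparcl1 were the 3 with a more positive change in the EYFP line, of which Itih3 passed in 3 of the 12 fits that left out 1 library (limma adjusted p of 0.0692 to 0.107 in the other 9). The counts were 8 to 16 and 2 to 4 in the fits that left out 1 library.

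Of 24 neural stem and progenitor markers, 11 had a more positive change in the tdTomato line and 1, Prom1, in the EYFP line. These are 50% of the list, against 11.8% of all genes tested. Tnc, a matrix glycoprotein of stem cell niches, lay at 14.69 to 14.98 in all 6 NSC libraries and at 13.58, 13.68 and 13.56 in tdTomato against 12.48, 12.76 and 12.25 in EYFP astrocytes. The NSCs overlapped and the tdTomato astrocytes kept more, a difference of 1.02 ± 0.15 (limma adjusted p = 0.00104). Msi1, an RNA-binding protein of progenitors, rose by 0.44 in the tdTomato line and fell by 0.29 in the EYFP line. Prom1, the surface protein CD133, rose by 1.02 and by 1.93 (difference -0.92 ± 0.20).

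All 42 S phase genes tested fell in both lines, by a median of 2.26 in the tdTomato line and 1.74 in the EYFP line. The fall was deeper in the tdTomato line for 13 (31%, against 11.8% of all genes tested) and deeper in the EYFP line for none. Ung, which removes uracil from DNA, lay at 8.67, 8.87 and 8.85 in tdTomato NSCs and at 7.96, 7.80 and 8.20 in EYFP NSCs, and at 6.16 to 6.80 in all astrocytes (difference -1.03 ± 0.21, limma adjusted p = 0.00666). The replication factors Cdc6 (-0.81 ± 0.15) and Mcm6 (-0.70 ± 0.12) gave the same picture, with NSCs apart and astrocytes that did not pass. EYFP NSC replicate 3 was the highest of its group for Ung, Cdc6 and Mcm6. The count was 27 without EYFP NSC replicate 3, 5 without tdTomato NSC replicate 3 or EYFP NSC replicate 1, 6 to 8 without tdTomato NSC replicate 2, EYFP NSC replicate 2, tdTomato astrocyte replicate 2 or EYFP astrocyte replicates 1 or 3, and 1 without the 4 libraries numbered 1, an alternative chosen after the data were seen. Of 54 G2/M genes, 3 differed (5.56%, against 11.8% of all genes tested), each with a fall less deep in the tdTomato line. Psrc1, a spindle protein, lay at 10.81, 10.71 and 10.49 in tdTomato NSCs and 10.55, 10.40 and 10.64 in EYFP NSCs, and at 8.60, 8.75 and 8.72 in tdTomato against 7.46, 7.35 and 7.28 in EYFP astrocytes (difference 1.18 ± 0.12, limma adjusted p = 0.000198). The other two were the kinetochore genes Cenpe (0.46) and Cenpf (0.40).

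Egr4 and Fosb, immediate early genes that respond within minutes to growth factors and handling, lay lower in tdTomato NSCs. Egr4 lay at 7.80, 7.98 and 7.35 in tdTomato NSCs and at 9.80, 9.76 and 8.54 in EYFP NSCs, and at 5.38, 5.33 and 5.42 in tdTomato and 5.01, 4.99 and 4.92 in EYFP astrocytes. It fell by 2.33 and by 4.40, a difference of 2.06 ± 0.37 (limma adjusted p = 0.00372). Fosb lay at 12.27, 12.52 and 11.82 in tdTomato NSCs and at 13.85, 14.06 and 13.30 in EYFP NSCs, with overlapping astrocytes, a difference of 1.58 ± 0.41. It did not pass without tdTomato NSC replicate 3 or EYFP NSC replicates 1 or 2 (limma adjusted p of 0.0592 to 0.0683). In each of Egr4, Fosb and Jdp2, an AP-1 family repressor, EYFP NSC replicate 3 was the lowest EYFP NSC library. Jdp2 rose by 0.55 and fell by 0.52, and its difference of 1.07 ± 0.27 did not pass without tdTomato NSC replicates 2 or 3, EYFP NSC replicate 1, tdTomato astrocyte replicate 2 or EYFP astrocyte replicate 3 (limma adjusted p of 0.0545 to 0.0635). Egr1 fell by 1.49 and by 2.59 and did not pass (1.10 ± 0.34, limma adjusted p = 0.0534). Of 26 actin, SRF and YAP target genes, 30.8% differed, against 11.8% of all genes tested. There were 8 more positive in the tdTomato line and 0 in the EYFP line. Ccn1 (1.31 ± 0.24), a secreted matrix protein, and the smooth muscle myosin Myh11 (1.57 ± 0.32) were among the 8. That count was 3 without tdTomato NSC replicate 3 or EYFP NSC replicate 1, and 4 or 5 without tdTomato NSC replicate 2, EYFP NSC replicate 2, tdTomato astrocyte replicates 1 or 3 or EYFP astrocyte replicates 1 or 2. The feedback genes of growth factor signalling Dusp6, Etv4 and Spry1 fell less in the tdTomato line, by 3.99, 0.97 and 2.89 against 4.94, 1.80 and 3.64. Their list had 7 of 38 members more positive in the tdTomato line and 2 in the EYFP line (23.7%). These counts were 11 and 2 without EYFP NSC replicate 3.

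Chac1, which degrades glutathione and is induced by amino acid shortage, rose in the tdTomato line from 6.94, 6.94 and 6.36 to 7.72, 7.66 and 7.70. In the EYFP line it went from 8.42, 9.32 and 6.97 to 7.03, 7.09 and 6.93, so that EYFP NSC replicate 3 lay near the tdTomato NSCs and apart from the other EYFP NSCs. The difference was 2.17 ± 0.57 (limma adjusted p = 0.0261), and it did not pass without tdTomato NSC replicate 3, EYFP NSC replicate 1, tdTomato astrocyte replicates 2 or 3 or EYFP astrocyte replicates 1 or 3 (limma adjusted p of 0.0508 to 0.0728). The stress factor Atf3 fell by 1.06 in the EYFP line, and its change of 0.15 in the tdTomato line did not pass, a difference of 1.21 ± 0.27. The list of unfolded protein and amino acid stress genes had 4 of 27 members more positive in the tdTomato line and 2 in the EYFP line. The list thus had 22.2% of its members called, against 11.8% of all genes tested. Without EYFP NSC replicate 3 it had 14 and 3, and without tdTomato NSC replicate 3, EYFP NSC replicate 1, tdTomato astrocyte replicates 2 or 3 or EYFP astrocyte replicate 1 it had 1 and 1. It had 3 and 4 without tdTomato NSC replicate 1, 2 and 1 without tdTomato NSC replicate 2, and 2 and 2 or 1 and 2 without EYFP astrocyte replicates 2 or 3.

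Of 23 oxidative stress and metal response genes, 34.8% differed, against 11.8% of all genes tested. Among them, 6 were more positive in the EYFP line and 2 in the tdTomato line. The latter count was 0 to 4 when 1 library was left out, and was 2 only without EYFP NSC replicate 3. Most of the 6 are known targets of the factor Nrf2, which binds an antioxidant element. The promoter of Srxn1, which repairs oxidised peroxiredoxins, is shown with the letters TGACNNNGC or TGAGNNNGC, on either strand, in capitals.
Srxn1 promoter, GRCm38.p6 chr2:152105274-152105523, + strand: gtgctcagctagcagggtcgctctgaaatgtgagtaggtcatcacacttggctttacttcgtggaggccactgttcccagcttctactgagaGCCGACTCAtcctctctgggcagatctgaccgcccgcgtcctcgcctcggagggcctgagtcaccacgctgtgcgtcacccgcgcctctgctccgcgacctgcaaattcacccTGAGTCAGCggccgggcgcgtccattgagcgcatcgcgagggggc
Such letters were found in 4 of the 5 members of this kind with a promoter entry and in 25.7% of all genes. Srxn1 lay at 7.71, 8.07 and 8.19 in tdTomato NSCs and at 9.75, 9.72 and 9.60 in tdTomato astrocytes, and at 7.33, 7.19 and 7.29 in EYFP NSCs and at 10.40, 10.00 and 10.13 in EYFP astrocytes. The tdTomato line was higher as NSCs and lower as astrocytes, without overlap, and the difference was -1.21 ± 0.17 (limma adjusted p = 0.000872). Prdx1, a peroxiredoxin, rose by 0.59 in the EYFP line and did not pass in the tdTomato line (-0.01). Nqo1, a quinone reductase, rose by 0.94 and by 1.47 and was lower in the tdTomato line in both fates. Its difference of -0.53 ± 0.13 did not pass without tdTomato NSC replicate 3 (limma adjusted p = 0.0518). Gclm (-0.29), Txnrd1 (-0.29) and Gsr (-0.47), genes of glutathione and thioredoxin, completed the 6, while Hmox1 did not pass (0.30 ± 0.18). The 6 numbered 5 to 8 in the fits that left out 1 library, and the 2 numbered 0 to 4.

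Genes that mark dorsoventral position in the spinal cord differed too. Lbx1, a homeobox factor of dorsal interneurons (chr19:45232684-45235812, - strand), lay at 6.24, 6.68 and 6.64 in tdTomato NSCs and at 3.23, 3.51 and 3.69 in tdTomato astrocytes, and at 2.12 to 2.48 in all 6 EYFP libraries. It fell by 3.04 in the tdTomato line and changed by -0.06 in the EYFP line, a difference of -2.98. All EYFP libraries lay below the filter, and Lbx1 reached it only because it was high in tdTomato NSCs, so no test is given. Gata3 lay at 5.73, 5.61 and 5.27 in tdTomato NSCs, at 6.07, 6.32 and 6.24 in tdTomato astrocytes, at 5.66, 5.80 and 5.46 in EYFP NSCs and at 4.48, 4.53 and 4.73 in EYFP astrocytes. The NSCs overlapped and the astrocytes did not, and Gata3 rose by 0.67 and fell by 1.06 (difference 1.73 ± 0.22). Dbx2, a factor of the middle of the neural tube, fell by 0.77 in the EYFP line and did not pass in the tdTomato line (0.14). Of 23 dorsoventral factors, 7 were more positive in the tdTomato line and 2 in the EYFP line (39.1%, against 11.8% of all genes tested).

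Of 33 Hox genes, which mark the level along the body axis, 7 were more positive in the tdTomato line and 1, Hoxb13, in the EYFP line. The share called was 24.2%, against 11.8% of all genes tested. Hoxb8 rose by 0.42 in the tdTomato line and fell by 0.36 in the EYFP line (0.78 ± 0.10, limma adjusted p = 0.000487), and Hoxb3 rose by 0.53 and fell by 0.22. Hoxb13, the most posterior gene of its cluster, lay at 3.37, 3.39 and 3.61 in tdTomato NSCs and at 0.12 to 1.24 in the 9 other libraries, so it was tested only through the group where it was high, and the list's call on the EYFP side rests on it alone. Hoxa13, among the 7, reached the filter through tdTomato astrocytes alone and passed in 4 of the 9 fits without 1 library that tested it. Without tdTomato astrocyte replicate 2 the list gave 3 and 1, and without tdTomato NSC replicate 2 it gave 4 and 0. Dlx6, a homeobox gene, lay at 1.58 to 2.24 in tdTomato NSCs and at 3.76, 4.00 and 3.87 in tdTomato astrocytes, and at 0.30 to 0.40 in all EYFP libraries, so it too reached the filter through 1 group and its values are given with no test.

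Genes of the extracellular matrix went both ways by class. Laminins, proteoglycans and matrix glycoproteins had 17 of 47 members more positive in the tdTomato line and 3 in the EYFP line. The share called was 42.6%, against 11.8% of all genes tested. Tnc, Fbln2 (0.72), the elastic fibre protein Eln (0.68) and Nid2 (0.94) were among the 17. Without tdTomato NSC replicate 3 the counts were 10 and 2, the EYFP count was 1 without tdTomato NSC replicate 2, tdTomato astrocyte replicate 2 or EYFP astrocyte replicate 1, and it was 5 without EYFP astrocyte replicate 2. Collagens had 4 of 25 and 7 (44%), or 3 and 3 without the 4 libraries numbered 1. Col6a1 lay at 5.07, 5.26 and 5.10 in tdTomato NSCs and at 7.67, 7.41 and 7.31 in tdTomato astrocytes, and at 4.32, 4.21 and 4.52 in EYFP NSCs and at 8.41, 8.07 and 8.02 in EYFP astrocytes (difference -1.49 ± 0.20, limma adjusted p = 0.000654). Col6a3, which joins Col6a1 in the same trimer, went the other way, from 2.23 to 2.78 in tdTomato and 2.71 to 3.16 in EYFP NSCs to 5.60, 5.65 and 5.18 in tdTomato and 3.92, 4.21 and 3.11 in EYFP astrocytes (difference 2.08 ± 0.39). Timp3, an inhibitor of matrix metalloproteases, rose by 1.81 and by 0.43, and the protease Adamts9 rose by 2.20 and by 3.16. The list of matrix proteases and inhibitors had 9 of 33 and 3 (36.4%).

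Axon guidance genes were split, 9 of 55 more positive in the tdTomato line and 11 in the EYFP line. Together these are 36.4%, against 11.8% of all genes tested. Slit3, a secreted ligand of Robo receptors (chr11:35121224-35708507, + strand), reached the filter on low values only through the tdTomato astrocytes, where it was high, so its values are given with no test. It lay at 1.10, 0.27 and 0.29 in tdTomato NSCs and at 6.00, 5.49 and 4.44 in tdTomato astrocytes, and at 0.22 to 0.26 in EYFP NSCs and at 1.04, 0.31 and 0.33 in EYFP astrocytes. It is among the 9 of the tdTomato side, and Sema7a, among the 11, reached the filter through tdTomato NSCs alone. The semaphorin Sema3f rose by 1.36 in the EYFP line and did not pass in the tdTomato line (-0.26), and Sema4d rose by 1.81 and by 3.16. The count on the EYFP side was 4 without tdTomato NSC replicate 3, and 5 to 7 without tdTomato NSC replicate 2, EYFP NSC replicates 1 or 2, tdTomato astrocyte replicate 2 or EYFP astrocyte replicate 3. Of 32 potassium channel genes, 7 and 4 differed (34.4%), the latter 2 without tdTomato NSC replicate 2, EYFP NSC replicates 1 or 2 or EYFP astrocyte replicate 3. Among 30 glutamate and GABA receptor genes, 4 and 3 differed (23.3%), or 8 and 2 without tdTomato NSC replicate 1. The NMDA receptor subunit Grin2c lay at 2.76, 3.59 and 3.78 in tdTomato NSCs, at 5.44, 5.78 and 5.42 in EYFP NSCs and at 1.83 to 2.47 in all astrocytes (difference 2.38 ± 0.36), and the AMPA receptor subunit Gria1 rose by 4.15 and by 2.65.

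Of 40 Wnt pathway genes tested, 25% differed, against 11.8% of all genes tested. There were 8 more positive in the tdTomato line and 2 in the EYFP line. The secreted inhibitor Wif1 (1.19 ± 0.21) was on the first side and the factor Lef1 (-0.91 ± 0.21) on the second. Without tdTomato NSC replicate 3 the counts were 4 and 2. They were 5 and 2 without tdTomato NSC replicate 2, EYFP NSC replicate 1 or EYFP astrocyte replicate 1. Interferon-stimulated genes had 7 of 37 and 1, a share of 21.6% against 11.8% of all genes tested. Without EYFP NSC replicate 2 they had 3 and 1, without tdTomato NSC replicate 2, tdTomato astrocyte replicates 2 or 3 or EYFP astrocyte replicates 1 or 3 they had 4 and 0, and without tdTomato NSC replicate 3 or EYFP NSC replicate 1 they had 5 and 0. Irf7, a factor of the interferon response, lay at 3.19 to 3.60 in tdTomato and 3.23 to 4.00 in EYFP NSCs, and at 4.94, 5.17 and 5.11 in tdTomato against 4.07, 3.98 and 3.43 in EYFP astrocytes (difference 1.48 ± 0.32). Ependymal and motile cilium genes had 3 of 26 and 0, a share of 11.5% against 11.8% of all genes tested, and 1 and 0 without EYFP NSC replicate 2. Foxj1 lay at 9.76, 9.45 and 9.41 in tdTomato NSCs and at 10.31, 10.26 and 10.25 in EYFP NSCs, with overlapping astrocytes, and rose by 1.60 and by 0.89 (difference 0.72 ± 0.13). Oligodendrocyte lineage genes had 3 of 15 and 0 (20%, against 11.8% of all genes tested). The p53 targets and cell cycle inhibitors had 4 of 28 and 3 (25%). Without tdTomato NSC replicate 3 or EYFP NSC replicate 1 the p53 counts were 2 and 1. Their EYFP count was also 1 without tdTomato NSC replicate 2, EYFP NSC replicate 2, tdTomato astrocyte replicates 2 or 3 or EYFP astrocyte replicate 3. The inhibitor Cdkn1a fell by 0.83 and by 1.37 and Cdkn2a rose by 0.20 and by 0.77.

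The remaining lists are given with the share of members called, against 11.8% of all genes tested. Of 74 ribosomal protein genes, all of which fell in both lines, 2 differed (2.70%), among them Rps27a (-0.21 ± 0.06, with 19.4% of its 75-base words shared with another gene, and called in 4 of the 12 fits that left out 1 library), and of 71 respiratory chain genes 4 differed (5.63%). MHC class I presentation genes had 1 of 17 (5.88%, H2-Q7, with 17% of its 75-base words shared with another gene, and called in 4 of the 12 fits that left out 1 library), glycolysis and hypoxia genes 4 of 33 (12.1%), imprinted genes 3 of 31 (9.68%), neuronal and neuroblast genes 4 of 19 (21.1%), complement genes 2 of 17 (11.8%) and reactive astrocyte genes 5 of 27 (18.5%). When 1 library was left out, the calls on the tdTomato and the EYFP side were 0 to 2 and 0 to 3 for the respiratory chain, 0 to 1 and 0 to 6 for ribosomal proteins, 1 to 3 and 2 to 4 for glycolysis, 2 to 3 and 0 to 3 for imprinted genes, 0 to 4 and 1 to 2 for neuronal genes, 0 to 2 and 3 to 4 for reactive astrocyte genes, and 0 to 1 and 0 to 2 for complement genes, of which 0 passed in all 12 fits.

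**Figure D5:**
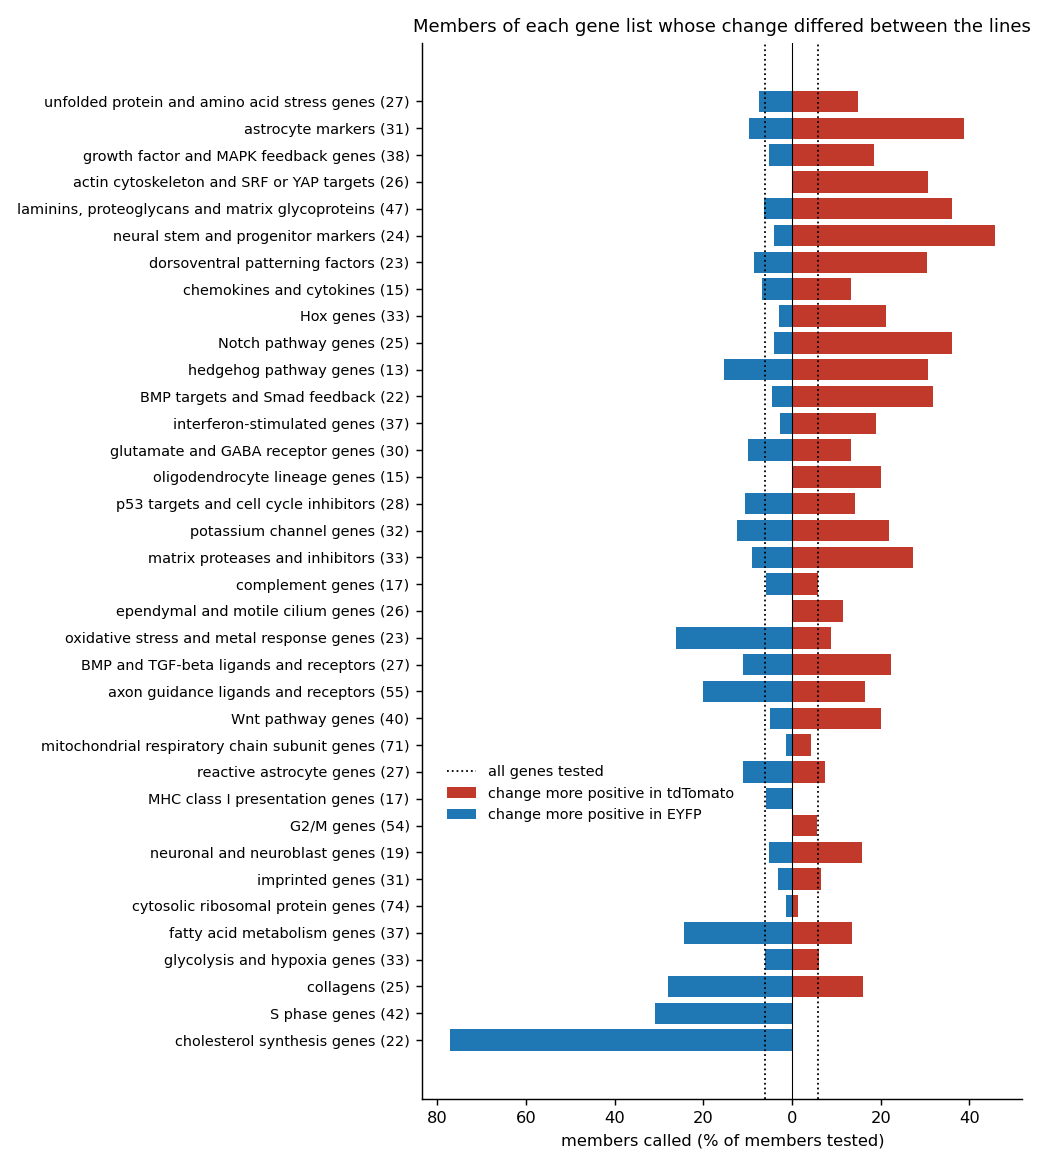
Share of the tested members of the pathway and cell state lists (number tested in brackets) whose change was more positive in the tdTomato line (right) or in the EYFP line (left), in percent, with the shares over all genes tested (5.83% and 5.99%) as dotted lines. Cholesterol synthesis (17 of 22) and S phase genes (13 of 42) lie on the EYFP side alone, and Notch pathway genes, astrocyte markers and neural stem cell markers lie mostly on the tdTomato side.

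Markers of other cell types were followed as lists, with their levels summed on the linear scale in each library. Against 11.8% of all genes tested, the share called was 62.5% for Schwann cell, 22.2% for endothelial and 30% for fibroblast genes. It was 25% for microglial and 0% for dendritic cell genes, and these lists are short. Of 8 Schwann cell and neural crest genes tested, 2 (Egr2 and Tfap2a) were more positive in the tdTomato line and 3 (Ngfr, Mal and Dhh, which reached the filter in tdTomato NSCs alone) in the EYFP line. The sum over that list was 2730 to 3170 in tdTomato NSCs, 2864 to 3218 in tdTomato astrocytes, 3676 to 4981 in EYFP NSCs and 2201 to 2591 in EYFP astrocytes. Endothelial and pericyte genes had 1 of 9 (Notch3) and 1 (Flt1), with sums of 1942 to 2488, 2022 to 2189, 3456 to 3875 and 2175 to 2231 in the same order of groups, and Cdh5 near -2.13 throughout. For both lists the EYFP NSCs had the highest sums. Fibroblast and meningeal genes had 1 of 10 (Foxc1) and 2 (Thy1, which passed in 2 of the 12 fits that left out 1 library, and Tbx18), with sums of 1535 to 1756, 2288 to 2380, 1165 to 1258 and 1996 to 2078. Of 4 microglial genes tested, Tmem119 differed (-2.06 ± 0.40), at 5.85 to 6.33 in tdTomato NSCs and 1.94 to 2.76 in EYFP NSCs, while Ptprc and Aif1 lay below 0 and the sums of the list spanned 695 to 861 over all groups. Of 6 dendritic cell genes tested, 0 differed by limma and 0 had an unadjusted p under 0.05, and their sums were 344 to 384 in NSCs and 463 to 504 in astrocytes. The part of such cells in the differences above was not tested.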

How the data were processed

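RNA was sequenced from 3 passages of each line in each fate, and the reads behind each value cannot be had from the table, which holds no counts. The deposited values are log2 values, which the authors made with Trimmomatic 0.36, STAR 2.5.2, RSEM 1.3.0 and DESeq2 1.18.1 on GRCm38 by normalising gene counts to library size (tools and versions per the labels); the transform that pulls low values towards their mean is not named in the sources used here. Columns of fates and lines other than the 12 traced spinal cord libraries served only in an alternative with 18 libraries. Symbols and positions came from GENCODE for GRCm38, and promoters (32851, the 250 bases before the start) from RefSeq for GRCm38.p6.

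Genes were fitted with limma 3.58.1 in R 4.3.3 (4 groups, 12 libraries, intensity trend), and p-values were adjusted by Benjamini-Hochberg over the 14534 genes tested, with a threshold of 0.05. Replicates are passages of a line, so p-values measure only the spread between these samples, which may be technical. 0 pairs of libraries held identical values in most genes, and the median absolute difference between replicates was 0.0598 to 0.106. Genes were named by a rule: the 15 with the largest difference in each direction among called, non-overlapping genes with a group mean of 6.64 or more, the 6 whose smaller absolute change was largest among those that rose in 1 line and fell in the other, up to 4 called members of each of 40 gene lists, and 8 fate and BMP markers. Further list members were named after their values were seen. The comparison, the rule and the lists were chosen with earlier results of these data known. Shared sequence was measured as 75-base words of a gene's transcripts that occur in another gene.

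Replicate numbers are shared by all groups. Within a line, NSC and astrocyte libraries with the same number deviated from their group means with correlations of -0.107 to -0.010. Within a line the numbers thus did not pair the fates. NSCs across lines correlated at 0.255, 0.006 and 0.225 for numbers 1, 2 and 3, so the numbers may pair some of these samples. Between the NSCs of the lines, 4523 genes differed with the replicate block and 5511 with the block within fate, against 4431 without a block. Astrocytes across lines correlated at 0.209 to 0.444, and with the replicate block 2067 genes differed between the astrocytes of the lines, or 2767 with the block within fate (added after the data were seen), against 1909 without it. A gene that reached the filter in 1 group alone was tested because it was high there, and stays in its list's count. Alternatives changed the filter, scaling, trend, samples, block and threshold. Results of some genes are not reported here.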

Additional observations from a re-analysis of the deposited data

Results flagged for a closer look

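The changes in the 2 lines were compared by a test of the difference itself, and 1719 genes passed it. Among genes with a group mean of 6.64 or more, those with the largest differences to the tdTomato side were Cxcl12 (3.66), Ackr3 (2.19), Chac1 (2.17), Egr4 (2.06), Luzp2 (2.01), Shank2 (1.95), Prdm1 (1.92), 9230105E05Rik (1.86), Tenm4 (1.78), Nrxn3 (1.66), Fndc1 (1.63), Papln (1.63), Gli2 (1.62), Glycam1 (1.59) and Fosb (1.58), each as a log2 difference in change. Among those to the EYFP side were Celf4 (-3.16), Sparcl1 (-2.82), Stk32b (-2.55), Smoc2 (-2.54), Sec16b (-2.38), Chd3 (-2.10), Clic5 (-1.99), Igsf21 (-1.96), Cdh23 (-1.85), Igf2bp3 (-1.75), Nptx2 (-1.73), Gabbr2 (-1.72), Rflnb (-1.72) and Angpt2 (-1.61). Gm14434 (1.36), Sox2ot (1.15) and Jdp2 (1.07) rose in the tdTomato line and fell in the EYFP line, both past the test.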

How the results depend on the processing

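The count of 1719 genes stayed within 1.5 times under the other filters, scalings and trend settings and with all 18 libraries (1243 without a filter to 1997 with 18 libraries). It was 1900 with the replicate block, 1384 with the block within line and 2964 with the block within fate, an alternative added after the data were seen. Under the latter, calls on the tdTomato and the EYFP side were 17 and 4 for growth factor feedback genes, 14 and 0 for actin, SRF and YAP targets, 0 and 24 for S phase genes, 4 and 5 for G2/M genes, 7 and 11 for collagens and 9 and 5 for p53 targets. The count of all genes was 920 without the 4 libraries numbered 1 (also added), 670 at an adjusted p under 0.01, 337 with a difference of 1 or more, and 1018 (without tdTomato NSC replicate 3) to 2175 (without EYFP NSC replicate 3) when 1 library was left out. The count for NSCs of the lines was 2795 to 4595 and that for astrocytes 1254 to 2063 when 1 library was left out, and the latter was 1058 without the libraries numbered 1. Of 824 values of the 33 genes with the largest or opposite differences over the alternatives, 787 kept direction and side of the threshold, 37 kept direction and no longer passed, and 0 turned. Those 37 belong to Chac1 (10), Fosb (8), Glycam1 (8), Jdp2 (8), Gm14434 (2) and Egr4 (1, adjusted p = 0.0534 without the libraries numbered 1). Of 6 tdTomato libraries, 5 correlated best with the EYFP library of their own number and fate, which is a hint from the data and not from the design. The causes were not tested. Counting depth cannot be had from these values, so differences of weakly expressed genes such as Slit3, Hoxb13 and Dlx6 are the least certain in size.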
